A study of Mus musculus with 69 samples.

Results

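The 10 genes described here are the members of the platelet-derived growth factor (PDGF) system, with its ligands Pdgfa, Pdgfb, Pdgfc and Pdgfd and its receptors Pdgfra and Pdgfrb, and 4 ligands of the vascular endothelial growth factor (VEGF) family, Vegfa, Vegfc, Vegfd and Pgf. They were chosen by gene symbol from the 56953 Ensembl gene identifiers of the count tables, and no measured value entered the choice. All 10 passed the filter on low counts in every cell type. The study exposed primary cells of male C57BL/6 mice for 24 h to stressors that accompany obesity, and sequenced poly(A) RNA of 69 libraries.

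Vascular smooth muscle cells (VSMC) came from the aorta of 4 wildtype mice (WT VSMC, 16 libraries) and of 4 mice with floxed Egfr and a Cre recombinase under the SM22 promoter, which is active in smooth muscle cells (KO VSMC, 15 libraries). Endothelial cells (EC, 38 libraries) came from hearts of 9 animals labelled wildtype and were enriched on beads as CD45-/CD31+ cells. Each set of cells from 1 animal and passage was divided over 4 conditions. Control cells received no stressor. HG+FFA was high glucose (20 mM) with free fatty acids, the metabolic stressors, given as 100 µM in the sample labels and as 100 µM of each of oleate and palmitate in the methods. AII+NA was 30 nM angiotensin II with 300 nM catecholamine, the humoral stressors, named epinephrine in the sample labels and norepinephrine in the methods. ALL was both together, and bovine serum albumin was present in all 4 conditions. There were 4 WT sets (1 to 4), 4 KO sets (5 to 8) and 10 EC sets (9 to 18), and a single animal gave both EC sets 17 and 18. By their animal codes, EC sets 9 and 10 came from the mice of WT VSMC sets 1 and 2. Not analysed here were ALL of KO set 5, Control of EC set 10 and AII+NA of EC set 15. All VSMC libraries carried one batch label and all EC libraries another, so batch and cell type cannot be told apart.

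PDGF ligands act as dimers on the receptor tyrosine kinases PDGFRα and PDGFRβ, and drive migration and proliferation of mesenchymal cells. In vessels the textbook arrangement is paracrine, with PDGF-B released by endothelial cells and PDGFRβ carried by smooth muscle cells and pericytes. PDGF-C and PDGF-D are secreted as latent factors and need proteolytic cleavage, PDGF-D then binding mainly PDGFRβ. VEGF-A is the main angiogenic factor, VEGF-C and VEGF-D are lymphangiogenic, and placental growth factor (Pgf) binds the VEGF receptor encoded by Flt1.

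3 members differed from Control under at least one exposure, namely Pdgfd, Vegfd and Pgf, and the 200 bases before their annotated starts are shown for these 3 because theirs are the RNAs that moved. Sequences are from the GRCm39 genome at starts of the GENCODE vM39 annotation, read 5′ to 3′ on the strand of the gene, at chr9:6168040-6168239 (plus) for Pdgfd, chrX:163156040-163156239 (plus) for Vegfd and chr12:85224565-85224764 (minus) for Pgf. Capitals mark matches, on either strand, to TATAAA, found in core promoters, to AGGTCA, bound by nuclear receptors, to ACGTG, the core of the hypoxia response element, or to GGGCGG, bound by Sp1 factors.
Pdgfd: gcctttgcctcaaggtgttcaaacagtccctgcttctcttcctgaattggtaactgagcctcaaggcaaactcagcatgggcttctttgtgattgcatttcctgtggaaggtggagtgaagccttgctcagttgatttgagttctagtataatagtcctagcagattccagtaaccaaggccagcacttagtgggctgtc
Vegfd: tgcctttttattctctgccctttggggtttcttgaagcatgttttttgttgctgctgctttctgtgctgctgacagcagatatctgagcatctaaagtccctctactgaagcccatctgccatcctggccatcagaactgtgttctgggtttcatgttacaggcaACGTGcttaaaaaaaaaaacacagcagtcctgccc
Pgf: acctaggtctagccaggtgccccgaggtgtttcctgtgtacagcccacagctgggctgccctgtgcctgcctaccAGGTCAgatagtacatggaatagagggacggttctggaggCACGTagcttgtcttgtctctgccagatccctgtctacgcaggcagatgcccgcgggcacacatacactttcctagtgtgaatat

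The Vegfd window held ACGTG 35 to 31 bases before the start, and the Pgf window held AGGTCA at 125 to 120 bases and ACGTG on the other strand at 85 to 81 bases. None of the 4 motifs was in the Pdgfd window. Among the windows of 21664 protein-coding genes, 10.1% held TATAAA, 11.2% AGGTCA, 13.6% ACGTG and 28.5% GGGCGG, and of the 10 members 1 (Pdgfb), 1 (Pgf), 2 (Vegfd and Pgf) and 1 (Vegfa) did. The 4 motifs do not overlap in these windows. A match is a match of letters only, and its position depends on the annotated start used. By the RefSeq annotation, the windows of Pdgfd and Vegfd lie elsewhere, inside first exons of the GENCODE models. Pdgfd itself lies on chromosome 9 at 6168240-6379265 (plus strand), Vegfd on chromosome X at 163156240-163185646 (plus strand) and Pgf on chromosome 12 at 85213409-85224564 (minus strand).

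Several sets stood apart from their labels. The summed level of 9 endothelial markers was 362, 427 and 417 FPM (counts scaled to library size) in EC sets 9, 11 and 13, between 1430 and 5960 FPM in the other EC animals, and 224 to 384 FPM in WT VSMC libraries. Pecam1, which encodes the sorting antigen CD31, was at 25.7, 42.4 and 18.1 FPM in those 3 sets and at 260 to 1590 FPM in the other EC sets, against a median of 0.638 FPM in WT VSMC. Most of the endothelial sum in WT VSMC came from Eng, at a median of 296 FPM. Every other marker of this list had a median between 0.0929 and 4.24 FPM there. EC sets 15 and 16 carry the animal codes of KO VSMC sets 7 and 6 although their genotype label is wildtype, and their Egfr was at 9.31 and 2.61 FPM, against 12.6 to 154 FPM in the other EC sets. Egfr was at 226 to 500 FPM in WT VSMC libraries and at 0.534 to 1.99 FPM in KO sets 6 to 8, but at 33.7 to 40.2 FPM in KO set 5. Of the contractile markers in WT VSMC libraries, Acta2 was at 222 to 1850 FPM, Smtn at 35.6 to 92.6, Lmod1 at 24.4 to 85.2 and Myh11 at 3 to 13.5 FPM, and under Control the sum of 8 fibroblast markers, 13300 to 35900 FPM, exceeded that of 8 smooth muscle markers, 381 to 1210 FPM. These sums cover different genes and are not scaled to gene length. Of the exon bases of the smooth muscle markers Tagln and Cnn1, 66.7% and 35.1% overlap other annotated genes, and the effect on the sum was not tested. EC calls are given with and without sets 9, 11 and 13 and with and without sets 15 and 16, both chosen after the data were seen, and KO calls with and without set 5.

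Between 17166133 and 43240489 counts per library lay behind these values. FPM values are scaled to library size only. Levels were compared between genes per kilobase of exon (FPKM).

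Under Control, Vegfd was the most abundant member per length in all 3 cell types, and Pdgfrb the second. In WT VSMC Vegfd stood at 488 ± 67.3 FPKM (SD, n = 4 animals), Pdgfrb, the receptor for PDGF-B and PDGF-D, at 76.8 ± 13.1 FPKM and Pdgfra at 51.3 ± 18.8 FPKM. Next came Vegfa at 21.8, Pdgfa at 9.25, Pdgfd at 7.44 and Vegfc at 6.47 FPKM. Pgf, Pdgfc and Pdgfb closed the order at 1.37, 0.846 and 0.652 FPKM. Of the 9 neighbouring pairs in this order, 3 had ranges over animals that did not overlap, Vegfd above Pdgfrb, Vegfa above Pdgfa and Vegfc above Pgf. The ranges of the other 6 overlapped. Of these, Pdgfrb was above Pdgfra and Pdgfra above Vegfa within 4 of 4 animals, with mean log2 ratios of 0.66 ± 0.51 and 1.26 ± 1.04 (SD), and the remaining 4 pairs were in this order in 2 or 3 of 4 animals. With the longest transcript as length in place of all exons, the order was the same.

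In KO VSMC Vegfd stood at 402 ± 107 and Pdgfrb at 61.8 ± 14.3 FPKM (n = 4 animals). Vegfa, Pdgfra and Pdgfa followed at 17.3, 16.3 and 15.6 FPKM with overlapping ranges, and Pdgfd stood at 7.64 ± 0.454 FPKM. With the longest transcript as length, Pdgfa at 31.9 FPKM came before Pdgfra at 27.5 and Vegfa at 21.0 FPKM. In EC, Vegfd averaged 216 FPKM with an SD of 280 over 8 animals, and every neighbouring pair in the order overlapped, although Vegfd was above Pdgfrb and Pdgfrb above Pdgfra in 8 of 8 animals. The level of the endothelial ligand Pdgfb was 3.56 ± 4.38 FPKM in EC. Under Control, Vegfd made up 94.4% ± 1.11 of the summed FPKM of the 4 VEGF family ligands in WT VSMC (SD, n = 4 libraries). Its share was 94.7% ± 1.67 in KO VSMC (n = 4 libraries) and 74% ± 14.4 in EC (n = 9 libraries of 8 animals). Among the 4 PDGF ligands, Pdgfa and Pdgfd together held most of the sum, with Pdgfa at 51.1% and Pdgfd at 41.0% in WT VSMC.

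**Figure D1:**
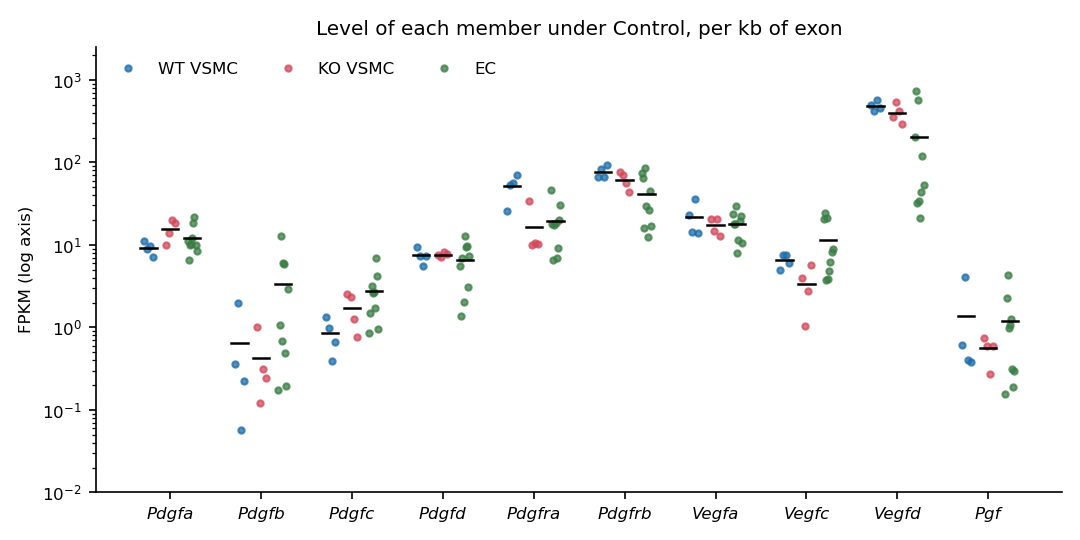
Level of the 10 members under Control, in FPKM on a log axis. Each point is a library (4 WT VSMC, 4 KO VSMC, 9 EC) and each black bar the mean of a group. Vegfd is highest in each cell type, with EC libraries spread from 21.4 FPKM upward, and Pdgfb and Pgf are among the lowest.

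The spread between sets differed by gene and cell type. In WT VSMC the set means of Pdgfrb and Vegfd differed by at most 1.25-fold and 1.38-fold, while those of Pdgfb and Pgf differed by 18.8-fold and 10.7-fold, with set 2 highest for both. In EC the set means of Pdgfb spanned 95.9-fold and those of Vegfd 41.3-fold. For Pdgfb in EC the SD between sets was 2.16 on the log2 scale. The SD left within sets, after condition means were also removed, was 0.51. For Vegfd in EC these were 1.95 and 0.40.

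Exposure effects were estimated within sets with edgeR, with the set as a block and adjustment over all genes tested (FDR, called below 0.05). Pdgfd, the ligand that needs cleavage to act on PDGFRβ, was the only member called in all 3 cell types, in each case higher. In WT VSMC the Control, HG+FFA, AII+NA and ALL libraries of set 1 held 86.6, 154, 97.8 and 156 FPM. Set 2 held 67.6, 101, 76.3 and 148 FPM in the same order, set 3 51.7, 90.3, 48.6 and 80.0 FPM, and set 4 68.4, 88.1, 85.4 and 140 FPM. Every set was higher under HG+FFA and under ALL than under Control, and the HG+FFA values did not overlap the Control values because the lowest of them, 88.1 FPM, was above the highest Control, 86.6 FPM. The ALL values overlapped Control through set 3 only.

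Under HG+FFA Pdgfd rose by 0.66 ± 0.12 on the log2 scale (1.58-fold, 4 of 4 sets, FDR = 0.0169) and under ALL by 0.92 ± 0.12 (1.89-fold, 4 of 4 sets, FDR = 0.000436). Under AII+NA the difference was 0.15 (FDR = 0.738). Without set 1 or set 3 the HG+FFA call was lost (log2 differences of 0.60 to 0.75 over the 4 leave-outs, highest FDR = 0.189), and the ALL call held in all 4. Pdgfd was the 1 member of 10 called under HG+FFA in WT VSMC, where 0.538% of 16905 genes were called. By the stricter rule of the study (edgeR and DESeq2, at least 0.64 on the log2 scale and at least 3 FPM), which called 0.284% of genes, it was also the 1 member called. Under ALL the 2 members called were Pdgfd and Pgf, both also by the stricter rule, against 7.45% of all genes by FDR and 2.22% by the stricter rule. Pgf met the limit of 3 FPM only through set 2, at 11.9 FPM under Control, where the other sets held 1.12 to 1.8 FPM. No member was called under AII+NA in WT VSMC (2 at unadjusted p below 0.05, 0 with DESeq2), where 0.0532% of genes were.

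In KO VSMC Pdgfd held 70.3, 74.3 and 77.7 FPM under Control, HG+FFA and AII+NA in set 5. Set 6, with ALL as the last value, held 65.3, 76.7, 70.4 and 80.5 FPM, set 7 75.6, 111, 92.2 and 131 FPM, and set 8 70.4, 94.1, 76.2 and 119 FPM. The 3 ALL values lay above all 4 Control values. Under ALL the rise was 0.59 ± 0.11 (1.51-fold, 3 of 3 sets, FDR = 0.0249), and the call was lost when any of sets 6, 7 and 8 was left out (0.51 to 0.70). It was the 1 member called, against 0.399% of 17538 genes, and it missed the fold limit of the stricter rule (0 members, 0.314% of genes).

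Under HG+FFA Pdgfd differed by 0.32 in KO VSMC (FDR = 0.226) and no member was called (3 at unadjusted p below 0.05, 0 with DESeq2; 0.439% of genes called). Without set 5, whose Egfr was the highest of the KO sets, Pdgfd was called under HG+FFA (0.40, FDR = 0.0372) and under ALL (0.62, FDR = 0.0103). Under AII+NA no member was called in KO VSMC (1 at unadjusted p below 0.05, 0 with DESeq2). Over all genes edgeR called 0% and DESeq2 called 11 genes.

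In EC Pdgfd ranged from 12.7 to 117 FPM under Control (median 64.1), from 13.4 to 150 under HG+FFA (median 86.5), from 11.1 to 119 under AII+NA (median 69.5) and from 16.2 to 135 FPM under ALL (median 90.3). The groups overlapped almost wholly, since the sets lay far apart, with set 11 lowest throughout, and the differences were seen within sets. The rise was 0.38 ± 0.08 under HG+FFA (1.30-fold, FDR = 0.00492) and 0.40 ± 0.08 under ALL (1.32-fold, FDR = 0.00275), each in 9 of 9 sets. Both calls held when any single set was left out, sets 17 and 18 of the shared animal included. With the animal in place of the set as the block, the rises were 0.39 and 0.41 and neither was called (FDR = 0.393 and 0.374). Without EC sets 9, 11 and 13 the rise was 0.32 under HG+FFA (FDR = 0.0276) and 0.30 under ALL, where the call was just lost (FDR = 0.0507). Without EC sets 15 and 16 both calls held (0.38 and 0.42). In bulk RNA, more cells of a type and more RNA per cell cannot be told apart.

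**Figure D2:**
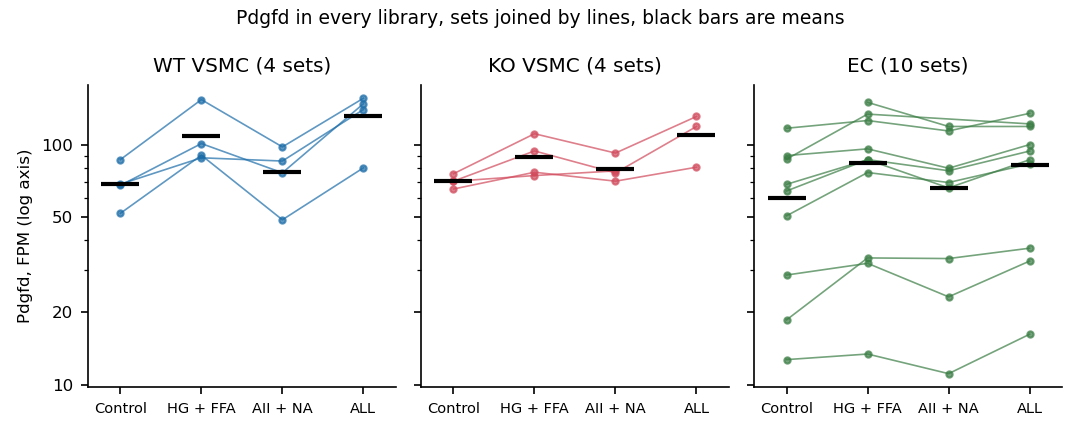
Pdgfd in every library, in FPM on a log axis, by condition and cell type. Lines join the libraries of a set and black bars are means; all 4 WT sets, the 3 KO sets with both libraries and all 9 EC sets with both were higher under ALL than under Control.

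The other PDGF ligands were not called under any exposure. Pdgfa, the ligand of PDGFRα, lay between 46.1 and 80.0 FPM in all 16 WT VSMC libraries, and its differences from Control ranged from -0.08 to 0.17 on the log2 scale. A share of 37.7% of its exon bases overlaps the annotated gene 6330403L08Rik, so reads there may have gone uncounted for Pdgfa and its level may be understated. Pdgfc, the other latent ligand, differed by -0.36 under HG+FFA in EC (7 of 9 sets lower, FDR = 0.11). Pdgfb differed by 1.06 under ALL in KO VSMC, with set 6 going from 0.519 to 1.32 FPM, set 7 from 1.33 to 5.36 FPM and set 8 from 1.04 to 1.15 FPM (FDR = 0.394). In EC it differed by 0.43 under ALL (7 of 9 sets higher, FDR = 0.271). Without sets 9, 11 and 13 it was called under HG+FFA, at 0.63 (FDR = 0.0395), and Pdgfc differed there by -0.50 (FDR = 0.111).

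Neither PDGF receptor was called under any exposure in any cell type. Pdgfra in WT VSMC was at 313, 659, 685 and 869 FPM under Control in sets 1 to 4 and at 222, 362, 742 and 586 FPM under ALL. Set 3 was higher under ALL and the other 3 sets lower, a difference of -0.43 (FDR = 0.203). In EC Pdgfra differed by -0.29 under HG+FFA (7 of 9 sets lower, FDR = 0.179) and by -0.33 under ALL (6 of 9, FDR = 0.125). Pdgfrb in WT VSMC was at 532 to 751 FPM under Control and 563 to 692 FPM under ALL, with overlapping groups and a difference of 0.06 (95% interval -0.16 to 0.28). In EC it differed by -0.27 under ALL (7 of 9 sets lower, FDR = 0.257). Without EC sets 9, 11 and 13 the ALL differences were -0.49 for Pdgfra (FDR = 0.0761) and -0.34 for Pdgfrb (FDR = 0.329), and without sets 15 and 16 they were -0.41 (FDR = 0.112) and -0.40 (FDR = 0.101).

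Vegfd, a ligand of the lymphatic receptor encoded by Flt4, was called in EC, in each case lower, and in neither VSMC genotype. The difference between cell types in this effect was not tested. It ranged from 61.0 to 2100 FPM under Control (median 151), from 36.0 to 2300 under HG+FFA (median 154), from 56 to 2060 under AII+NA (median 313) and from 23.8 to 2170 FPM under ALL (median 177). Set 11 was highest throughout and was the 1 of 9 sets that was not lower under HG+FFA or ALL, so the groups overlapped and the difference was again within sets. Set 13 held 1630 FPM under Control and 1000 FPM under ALL, set 14 97.6 and 53.6 FPM, and set 18, with the largest difference, 151 and 23.8 FPM.

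Vegfd fell by 0.73 ± 0.16 on the log2 scale under HG+FFA in EC (0.604-fold, 8 of 9 sets, FDR = 0.00728) and fell by 0.70 ± 0.16 under ALL (0.617-fold, 8 of 9 sets, FDR = 0.0118). Both calls held in every leave-out, but without set 18 the differences were -0.51 and -0.43, so the size of the second moved by over 1.5 times with this set. Without EC sets 9, 11 and 13 they were -0.94 (FDR = 0.0106) and -0.89 (FDR = 0.0172), and without sets 15 and 16 -0.84 (FDR = 0.0193) and -0.80 (FDR = 0.0248). Both calls were lost with the animal as the block (-0.61 and -0.54, FDR = 0.406 and 0.503) and with only the 2 conditions fitted (-0.69 and -0.64, FDR = 0.0583 and 0.172). With no block the differences were -0.35 and -0.36 and were not called (both FDR = 1). Pdgfd and Vegfd were the 2 members called under HG+FFA in EC (4 at unadjusted p below 0.05), against 3.53% of 17148 genes, and the same 2 under ALL, against 3.18%. By the stricter rule Vegfd alone was called under each, against 0.641% and 0.636% of genes. Under AII+NA no member was called in EC (0 at unadjusted p below 0.05, 0 with DESeq2), nor any other gene (0%).

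Marker RNA of fibroblasts moved with these EC results. Of 8 fibroblast markers, 4 fell under HG+FFA (Col1a1, Col1a2, Col3a1 and Pi16) and 2 under ALL (Col1a2 and Col3a1), and their sum was lower in 7 of 9 sets under HG+FFA and in 8 of 9 under ALL. The sum ranged from 4960 to 33500 FPM under Control, from 3460 to 34200 under HG+FFA and from 3330 to 39600 FPM under ALL. None of the 8 was at 0 in more than 1 of 38 libraries. Of 9 endothelial markers, Emcn rose under both exposures and the others were not called. Of the other lists, the pericyte marker Cspg4 fell under HG+FFA and the mesothelial marker Upk3b rose under ALL. The fibroblast markers called without EC sets 9, 11 and 13, all lower, were 3 under HG+FFA and 4 under ALL, Vwf fell beside the rise of Emcn under both, and neither Cspg4 nor Upk3b was called. Without sets 15 and 16 they were 2 and 2, and Cspg4 fell under both exposures. The part of these markers in the EC results was not tested.

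In VSMC Vegfd was not called. In WT VSMC sets 1 to 4 held 1430, 1210, 1640 and 1290 FPM under Control and 1140, 1400, 1720 and 1870 FPM under ALL, a difference of 0.12 (95% interval -0.14 to 0.38). In KO VSMC sets 6 to 8 held 1540, 1210 and 830 FPM under Control and 1370, 718 and 646 FPM under ALL. All 3 KO sets were lower under ALL, with a fitted difference of -0.40 (FDR = 0.282) and overlapping groups.

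**Figure D3:**
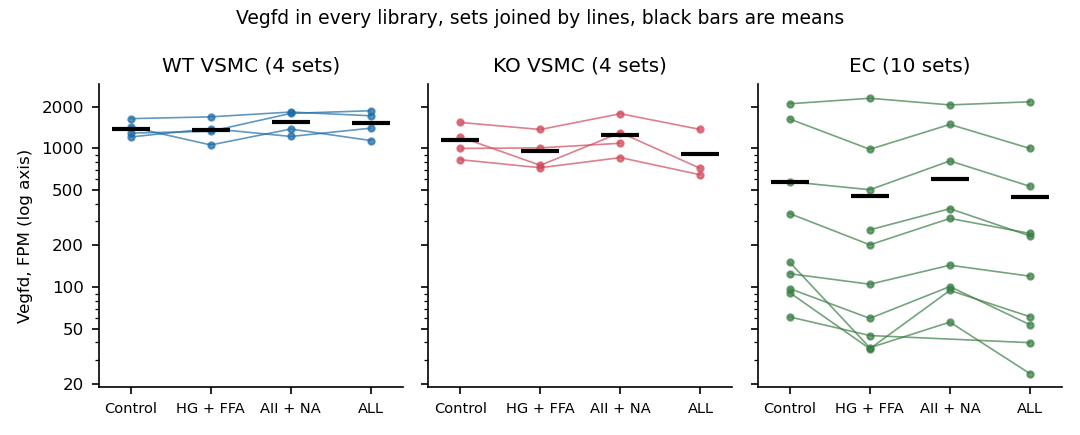
Vegfd in every library, in FPM on a log axis, by condition and cell type, with lines joining the libraries of a set and black bars for means. WT VSMC sets stay between 1060 and 1870 FPM, while EC sets span 23.8 to 2300 FPM. Of the 9 EC sets with both libraries, all but set 11 are lower under HG+FFA and ALL than under Control.

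Pgf, the placental growth factor, was called in WT VSMC under ALL, where it fell by 0.78 ± 0.21 on the log2 scale (0.582-fold, 4 of 4 sets, FDR = 0.0319). Its level was low. Set 1 held 1.80 FPM under Control and 1.56 FPM under ALL, set 2 11.9 and 4.88 FPM, set 3 1.17 and 1.01 FPM, and set 4 1.12 and 0.419 FPM. The groups overlapped, and in counts the difference of set 4 was between 31 and 9 reads. Under HG+FFA and AII+NA the differences were -0.43 and -0.45, lower in 4 of 4 sets each but not called (FDR = 0.425 and 0.501). Without set 2 or set 4 the ALL call was lost, with differences of -0.50 to -0.99 over the 4 leave-outs, and it was also lost with only Control and ALL fitted (-0.78, FDR = 0.112). In KO VSMC and EC Pgf was not called.

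Vegfa, the main angiogenic ligand, was at 99.7, 61.5, 153 and 59.9 FPM under Control and 154, 84.2, 174 and 58.1 FPM under ALL in WT sets 1 to 4. Sets 1 to 3 were higher under ALL and set 4 was not, a difference of 0.31 that missed the threshold with edgeR (FDR = 0.0635) and passed it with DESeq2 (FDR = 0.0311) and without set 4 (0.43, FDR = 0.0362). Vegfc, the other lymphangiogenic ligand, was at 14.3, 21.4, 21.3 and 17.1 FPM under Control and 17, 51.8, 24.0 and 28.9 FPM under AII+NA in WT VSMC. All 4 sets were higher and set 2 most, a difference of 0.66 (FDR = 0.266) that was 0.40 without set 2. Under ALL it was 0.52 (4 of 4 sets, FDR = 0.143), which was 0.60 and called without set 2 (FDR = 0.0338) and 0.29 without set 4 (FDR = 0.599).

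Markers moved with the VSMC results too. In WT VSMC the fibroblast marker Pi16 fell by 0.71 under HG+FFA (FDR = 0.00649). Under ALL 2 of 8 smooth muscle markers rose (Tagln and Mylk), 2 of 8 fibroblast markers (Pi16 and Col3a1) and 2 of 9 endothelial markers (Cdh5 and Emcn) fell, and of 5 pericyte markers Notch3 rose and Rgs5 and Kcnj8 fell. Of the other lists Tnnt2, a cardiomyocyte marker, rose by 1.07 (FDR = 0.0372) and Pdpn, a lymphatic endothelial marker, fell by 0.39 (FDR = 0.00427). In KO VSMC the mesothelial marker Upk3b rose by 0.76 under ALL (FDR = 0.02). The smooth muscle sum in WT VSMC was 381 to 1210 FPM under Control and 1120 to 1590 FPM under ALL. The fibroblast sum in WT VSMC was 13300 to 35900 and 14200 to 24500 FPM, in the same order. The part of these markers in the changes of Pdgfd and Pgf was not tested.

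**Figure D4:**
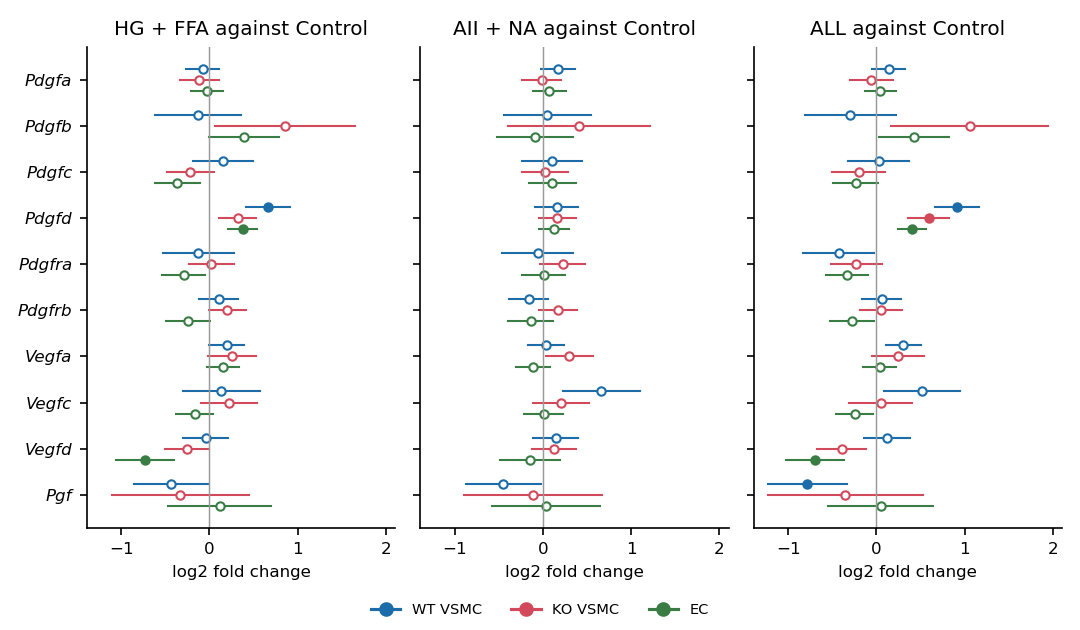
Differences of the 10 members from Control (log2 fold change) under HG+FFA, AII+NA and ALL. Points are edgeR estimates, lines 95% intervals and filled points pass FDR 0.05; Pdgfd is filled and to the right in WT VSMC and EC under HG+FFA and in all 3 cell types under ALL, Vegfd is filled and to the left in EC, and no point is filled under AII+NA.

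The combination was also set against each single exposure. Relative to AII+NA, ALL raised Pdgfd in WT VSMC by 0.76 ± 0.12 (4 of 4 sets, FDR = 0.00442), the 1 member called among 1.36% of genes. In EC 2 members were called (3.22% of genes), with Pdgfd at 0.27 (FDR = 0.0499) and Vegfd at -0.55 (FDR = 0.0467), and each of these calls was lost in 8 of 10 leave-outs, and both without sets 15 and 16 (FDR = 0.124 and 0.095). When sets 9, 11 and 13 were left out, Pdgfd stayed called (0.29, FDR = 0.0492) and Vegfd did not (-0.62, FDR = 0.0947). In KO VSMC no member was called with edgeR (0.399% of genes), 3 had an unadjusted p below 0.05, and DESeq2 called Pdgfd (0.43, FDR = 0.0145) and Vegfd (-0.52, FDR = 0.0128). Relative to HG+FFA no member was called in WT VSMC (0.0414% of genes), KO VSMC (0%) or EC (0%), with 2, 1 and 0 members at unadjusted p below 0.05 and 0 with DESeq2. In WT VSMC Pdgfd was 0.26 higher under ALL than under HG+FFA (FDR = 0.433).

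The departure of ALL from the sum of both single effects was tested as an interaction, and no member and no other gene was called (0% of genes in WT VSMC, 0% in KO VSMC, 0% in EC). At unadjusted p below 0.05 there were 0, 2 and 0 members, and DESeq2 called 0. For Pdgfd in WT VSMC the departure was 0.11 with a 95% interval of -0.24 to 0.46. The 2 KO members were Pdgfra, at -0.47, and Pdgfrb, at -0.32 (both FDR = 0.658).

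Whether effects differed between the genotypes was tested as a difference of differences. No member was called under HG+FFA (0% of 18339 genes), AII+NA (0%) or ALL (0.0109%), with 2, 1 and 2 members at unadjusted p below 0.05 and 0 called by DESeq2. The effect on Pdgfd was larger in WT than in KO VSMC by 0.34 under HG+FFA (95% interval 0.02 to 0.66, FDR = 1) and by 0.33 under ALL (-0.01 to 0.67, FDR = 0.688). For Vegfd under ALL the difference was 0.52 (0.14 to 0.90, FDR = 0.469). For Pdgfb under ALL it was -1.34 (FDR = 0.533).

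Under Control no member differed between KO and WT VSMC at FDR 0.05 (0% of 17482 genes; 2 members at unadjusted p below 0.05, 0 with DESeq2). Egfr itself, at -5.15, was not called in this comparison of unpaired animals (FDR = 0.641), although KO and WT values did not overlap. The EC Control libraries shared the dispersion estimate of this fit, and DESeq2 called 41 genes. Since the deleted gene was missed, the lack of calls does not show equal levels. Pdgfra, the receptor for PDGF-A and PDGF-C, was at 125, 130 and 126 FPM in KO sets 6 to 8 and at 424 FPM in KO set 5, against 313 to 869 FPM in WT sets, a difference of -1.65 (FDR = 0.718). Without set 5 it was -2.32 (FDR = 0.183), and the groups then no longer overlapped. Pdgfa was at 68.2 to 134 FPM in KO and 48.2 to 75.8 FPM in WT VSMC, a difference of 0.75 (FDR = 0.718).

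Between EC and WT VSMC under Control, 1 member was called, Pdgfc, against 14.9% of genes. It was at 5.76 to 46.7 FPM in EC and 2.61 to 8.92 FPM in WT VSMC, higher by 1.73 ± 0.51 (3.33-fold, FDR = 0.0345), and lost the call without WT set 2, 3 or 4 and without EC sets 15 and 16 (1.44, FDR = 0.0597). EC set 9 and WT set 1, from the same mouse, entered this fit as independent. DESeq2 also called Pdgfra, at -1.44 with edgeR (FDR = 0.0542), and Pdgfb, at 2.47 (FDR = 0.15). Without EC sets 9, 11 and 13, 5 members were called, but calls over all genes also rose, from 2606 of 17482 to 4962 of 17209. Vegfd at -3.43 (FDR = 9.96e-05), Pdgfrb at -1.69 (FDR = 0.00093) and Pdgfra at -1.91 (FDR = 0.0128) were lower in EC. Pdgfc at 2.05 (FDR = 0.00788) and Pdgfb at 3.05 (FDR = 0.0465) were higher in EC.

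Member levels were also set beside marker levels over EC animals. In EC sets 9, 11 and 13, Pdgfrb was at 552, 580 and 550 FPM, Vegfc at 63.5, 66.5 and 68.8 FPM and Vegfd at 607, 2160 and 1280 FPM. In the other 6 animals Pdgfrb was at 91.7 to 316 FPM, Vegfc at 8.97 to 47.1 FPM and Vegfd at 48.5 to 287 FPM. Pdgfb was at 0.724, 5.38 and 2.21 FPM in the first 3 and at 2.56 to 83.5 FPM in the others. Since the animals fell into separate clusters, a relation was computed only within these 6, for 4 pairs of receptor and marker sum. Pdgfrb and the endothelial sum gave r = -0.83 (exact permutation p = 0.0278, 0.111 adjusted over the 4 pairs; Spearman's rho = -0.94, exact permutation p = 0.0167, 0.0667 adjusted), and r = -0.85 without the 2 animals farthest from the median. For Pdgfrb and the fibroblast sum r was 0.76 (exact permutation p = 0.0986), and for Pdgfra r was 0.54 with the fibroblast sum (exact permutation p = 0.246) and -0.39 with the endothelial sum (exact permutation p = 0.464). None passed after adjustment.

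**Figure D5:**
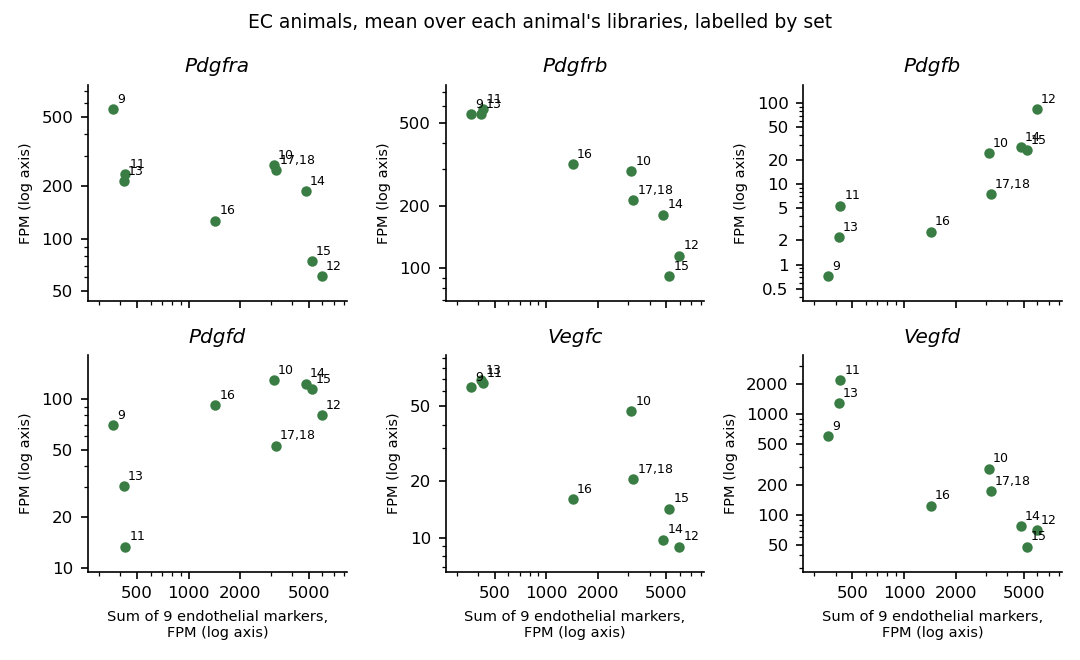
Mean level of 6 members in each of the 9 EC animals against the sum of 9 endothelial markers, both in FPM on log axes, with points labelled by set. Sets 9, 11 and 13, at 362 to 427 FPM of marker RNA, hold the highest Pdgfrb, Vegfc and Vegfd, and Pdgfb is highest in set 12.

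The 43 other genes of these pathways were all tested. Under HG+FFA in WT VSMC 1 was called (2.33% of 43, against 0.538% of all genes), Ndrg1, a hypoxia-inducible gene, which fell by 0.45 (FDR = 0.0241). Under ALL 6 were called (14% of 43, against 7.45% of all genes). Of the VEGF receptors Flt1 rose by 0.82 ± 0.18 (FDR = 0.00999), and of genes near the receptors the phosphatase gene Ptprb rose by 1.14 (FDR = 0.0164). Of the genes that process ligands, Ccbe1, a cofactor of VEGF-C cleavage, rose by 0.67 (FDR = 0.0155) and Plat, tissue plasminogen activator, which cleaves PDGF-C, fell by 0.43 (FDR = 0.0211). Of the hypoxia-inducible targets the glycolytic regulator Pfkfb3 rose by 0.86 (FDR = 0.0123) and Ndrg1 fell by 0.49 (FDR = 0.00307). The median of the 43 was 0.032 on the log2 scale. None of the 8 oxygen-sensing genes was called. ALL against AII+NA called Ndrg1 at -0.39 (FDR = 0.0362) and the prolyl hydroxylase subunit P4ha1 at 0.34 (FDR = 0.0448). In KO VSMC none of the 43 was called under any exposure.

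In EC 4 of the 43 were called under HG+FFA and 6 under ALL (9.3% and 14%, against 3.53% and 3.18% of all genes). Ndrg1 fell by 0.64 under ALL in 9 of 9 sets (FDR = 7.99e-06), and Adm, the vasodilator peptide adrenomedullin, rose by 0.52 in 9 of 9 sets (FDR = 0.00174). Flt1 fell by 0.41 in 9 of 9 sets (FDR = 0.00227) and the co-receptor gene Nrp1 fell by 0.30 (FDR = 0.0448). Plau, urokinase, which can cleave PDGF-D, fell by 0.44 in 9 of 9 sets (FDR = 0.00796), and Sparc, which binds PDGF, fell by 0.28 (FDR = 0.00993). Under HG+FFA the called genes were Ndrg1 at -0.57, Adm at 0.46, Sparc at -0.25 and the kinase subunit Pik3ca at 0.23. Of the 43, 4 and 7 were called without EC sets 9, 11 and 13, where 451 and 334 of 17464 genes were, and Pik3ca was not among them. Without sets 15 and 16 those called were Adm and Ndrg1 under HG+FFA and Adm, Flt1 and Ndrg1 under ALL, 4.65% and 6.98% of the 43. Over all genes 255 and 292 of 17334 were called there. The opposite signs of Flt1 under ALL in EC and WT VSMC were not tested against each other.

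Between EC and WT VSMC under Control 8 of the 43 were called, 18.6% against 14.9% of all genes, a share near the background. The count was 16 without EC sets 9, 11 and 13, where 4962 of 17209 genes were called, and 6 without sets 15 and 16, where 1425 of 17280 were. Ptprb was higher in EC by 6.71, Kdr, the main signalling receptor for VEGF-A, by 4.60 and Epas1, an oxygen-regulated transcription factor, by 4.13. Nrp1 and the ubiquitin ligase gene Cbl were higher by 1.5 and 1.27. Lower in EC were Adm, with a log2 difference of -2.34, Vegfb, the remaining VEGF ligand, at -1.38 and the kinase subunit Pik3r1 at -0.93. FDR values for these 8 were between 0.00235 and 0.0439.

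Among the genes most like Pdgfd over the 16 WT VSMC libraries, after set means were subtracted, were Slc6a6, the taurine transporter (Pearson r = 0.946), and Kif22, a kinesin (0.944), out of 12040 genes compared. Those most like Pgf were Ston2 (0.945), Eya4 (0.935) and Rpp14 (0.926). These r describe libraries that share sets and exposures and carry no test.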

How the data were processed

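Poly(A) RNA of 69 libraries was sequenced in read pairs. The authors aligned reads with HISAT2 (2.1.0) to mm39 and counted them per Ensembl gene with featureCounts, multi-mapping reads included. They deposited raw counts, with 17166133 to 43240489 counts per library. The strand setting is not given in the sources used here, so reads of overlapping antisense genes cannot be told apart.

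From these counts, genes passing filterByExpr were fitted per cell type with edgeR (4.0.16; TMM scaling, quasi-likelihood test, set as block, Benjamini-Hochberg over all genes). Joint VSMC and Control fits tested genotype and cell type, the Control fit with sets 17 and 18 joined as 1 animal. A call is FDR below 0.05. DESeq2 (1.42.0) was an alternative, and R was 4.3.3. Errors are standard errors and intervals 95%. FPM uses TMM-scaled totals, FPKM the exon length in GENCODE vM39. Identifiers were matched to that annotation (56310 of 56953). The fits were tested on simulated data. Replicate libraries of a group differed beyond sampling noise.

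Same-numbered libraries came from 1 animal, passage and treatment day, which is the source of the pairing, and within every set deviations from group means correlated (lowest r 0.495). All 10 members were named in every comparison, at most 3 called genes per pathway list by size, and the 3 genes most like each member called in WT VSMC (log2 of FPM + 0.1, mean at least 3 FPM). One gene that this rule names is not reported here. The members and lists were chosen with earlier results of these data known. Leaving out EC sets 9, 11 and 13 or 15 and 16, and the restriction of correlations to 6 animals, were chosen after seeing the data.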

Additional observations from a re-analysis of the deposited data

Results flagged for a closer look

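In 19 of 110 groups of 4 to 10 libraries, the highest or lowest library lay far from the rest of its group, where chance alone gives about 1 in 20. They came from few sets, and the groups of a set are not independent.

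WT set 2 was high for Pgf (11.9 FPM under Control, 8.94 under HG+FFA and 8.59 under AII+NA) and for Pdgfb (8.37 FPM under Control and 7.71 under HG+FFA, where the other 3 Control libraries held 0.245 to 1.53 FPM). WT set 1 was high for Pdgfc under AII+NA (10.8 FPM). KO set 5, with the highest Egfr of the KO sets, was high for Pdgfra under Control (424 FPM against 125 to 130 FPM), and under AII+NA for Pdgfb (5.02 FPM) and Pgf (2.11 FPM).

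EC set 12, with the highest endothelial marker sum, was high for Pdgfb under Control (54.1 FPM), HG+FFA (109), AII+NA (52.4) and ALL (119), and for Pgf under HG+FFA (13 FPM). EC set 9 was high for Pdgfra under HG+FFA (532 FPM), AII+NA (583) and ALL (519), and EC set 11 for Vegfd under HG+FFA (2300 FPM) and ALL (2170). Both are among the EC sets with low endothelial markers. The causes were not tested.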

How the results depend on the processing

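Counts below are member and comparison pairs called, and no alternative reversed a direction. With no count filter they were 7 in place of 3 for exposures in WT VSMC, 4 in place of 1 in KO VSMC, 9 in place of 4 in EC, 11 in place of 3 for ALL against single exposures and 2 in place of 0 for the genotype difference. Calls over all genes rose there too, for every exposure against Control and every genotype difference, among more genes tested. These higher counts therefore cannot be read as specific to the members. With no replicate block all 4 sets of exposure calls (WT, KO, EC, ALL against single exposures) fell to 0, so the calls rest on the pairing within sets. With the animal in place of the set as the block, EC gave 0 and ALL against single exposures 1. With only the 2 conditions compared, WT gave 2, KO 0 and EC 2. The study's rule gave 0 in KO, 2 in EC and 1 for ALL against single exposures. DESeq2 gave 5 for ALL against single exposures and 3 for EC against WT VSMC. Leaving out each set gave 0 to 2 in KO, 2 to 3 in WT, 4 in EC, 1 to 3 for ALL against single exposures and 0 to 2 for EC against WT VSMC. The last rose to 5 without EC sets 9, 11 and 13, where 4962 of 17209 genes were called in place of 2606 of 17482. Without EC sets 15 and 16, ALL against single exposures gave 1 and EC against WT VSMC 0. With the longest transcript as length, 6 of 10 members kept their rank in EC. No paired analysis was possible for KO or EC against WT VSMC under Control because KO and WT share no animal and only 1 animal (WT set 1, EC set 9) has Control libraries of both WT VSMC and EC. Departure from additivity and KO against WT VSMC stayed at 0 calls throughout, and the main fit of the latter also missed Egfr. Of the 12 called effects, 12 held with DESeq2 and 11 with its size factors. A Control-only correlation was not run, since it leaves 5 animals. Counts as low as 9 reads limit Pgf and Pdgfb.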
